A study of Homo sapiens with 6 samples.

Results

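The transcripts of SOX4, ITGB8, MACC1, NABP1, TXK, DSCAM, GJB2, PDE3B and GOLGA8B were followed in myeloma cells given either of a pair of related compounds. These 9 genes, of 11048 listed in all 6 libraries, were chosen for a single pattern, a mean CPM above DMSO with CCF642 and below DMSO with CCF642-34, so their levels and differences are given as a description with no test. MM1.S is a human multiple myeloma line, a cancer of plasma cells, grown here in medium with serum. The cells received 3 µM CCF642, 3 µM of its analogue CCF642-34 or the vehicle DMSO for 6 h, and the study asked how the transcriptomes under these inhibitors of protein disulfide isomerase PDIA1 differ. Each of the 3 groups had 2 libraries of poly(A) RNA, and the sources used here do not say whether those came from separate cultures, so a p value measures the spread between these libraries. CPM gives the reads counted on a gene relative to the total of its library.

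SOX4 is a transcription factor with a high mobility group box that acts in lymphocyte development and in many tumours, where it is known as a target of transforming growth factor beta (TGF-β). ITGB8 encodes the integrin β8 chain, which pairs only with the αV chain and releases TGF-β from its latent form, so that the first pair of genes stand at different steps of the same pathway. The other members have unlike roles: MACC1 promotes MET expression and cell migration, TXK is a kinase of the TEC family, PDE3B breaks down cyclic nucleotides, DSCAM and GJB2 act at cell contacts, NABP1 binds single-stranded DNA and GOLGA8B is a golgin. The 9 genes lie on 8 chromosomes.

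The promoters of the leading members are shown because SOX4 and ITGB8 had the widest gaps between the compounds and because MACC1 and ITGB8 are neighbours on opposite strands. Each window runs from 250 bases before to 50 bases after the start site in RefSeq on GRCh38.p14, 5′ to 3′ on the gene's own strand. Capitals mark CCAAT, GC box (GGGCGG) and TATAAA motifs on either strand. The SOX4 window is chr6:21593501-21593800 on the plus strand, the ITGB8 window chr7:20330650-20330949 on the plus strand and the MACC1 window chr7:20217335-20217634 on the minus strand.
SOX4: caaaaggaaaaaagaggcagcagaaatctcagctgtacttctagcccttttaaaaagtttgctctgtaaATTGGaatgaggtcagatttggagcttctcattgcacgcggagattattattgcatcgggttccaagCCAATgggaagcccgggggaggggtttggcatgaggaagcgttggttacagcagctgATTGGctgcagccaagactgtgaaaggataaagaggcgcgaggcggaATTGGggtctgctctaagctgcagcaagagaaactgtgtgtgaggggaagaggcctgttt
ITGB8: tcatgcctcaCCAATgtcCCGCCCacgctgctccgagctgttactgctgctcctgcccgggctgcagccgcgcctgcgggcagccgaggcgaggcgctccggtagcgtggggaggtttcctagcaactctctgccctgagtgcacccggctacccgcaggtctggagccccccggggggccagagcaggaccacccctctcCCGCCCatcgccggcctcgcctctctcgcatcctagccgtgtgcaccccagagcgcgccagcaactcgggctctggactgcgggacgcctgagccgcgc
MACC1: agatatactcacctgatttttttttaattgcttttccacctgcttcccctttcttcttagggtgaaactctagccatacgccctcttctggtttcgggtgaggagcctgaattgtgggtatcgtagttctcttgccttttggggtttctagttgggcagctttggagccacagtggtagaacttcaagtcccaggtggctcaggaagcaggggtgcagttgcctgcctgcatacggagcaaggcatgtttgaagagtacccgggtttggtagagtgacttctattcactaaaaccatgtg
The SOX4 window held 4 CCAAT motifs, the ITGB8 window 1 CCAAT motif and 2 GC boxes, and the MACC1 window neither. For SOX4 and GOLGA8B the RefSeq windows do not hold the start of the GENCODE gene models used for lengths and distances below. SOX4 starts there at base 21592768, so its window, CCAAT motifs included, lies within exon bases of that model. GOLGA8B starts there at base 34588503. Which start these cells use was not tested. RefSeq windows were at hand for 8 members, all but PDE3B. Of these, 4 (SOX4, ITGB8, NABP1 and TXK) held CCAAT, as did 34.6% of 35116 promoter windows and 35.1% of the windows of listed genes. A GC box stood in 3 (ITGB8, NABP1 and GJB2), beside 45.0% of all windows and 65.2% of those of listed genes. The letters CAGAC, the core bound by SMAD proteins that carry TGF-β signals, stood in the SOX4 and ITGB8 windows, and in 45.3% of all windows and 43.4% of those of listed genes. DSCAM alone held TGACNNNGC, the core of the antioxidant response element, found in 13.3% of all and 14.7% of listed windows, and TXK alone held TATAAA, found in 11.5% of all and 6.05% of listed windows. No member window held the cyclic AMP element TGACGTCA, the AP-1 motif TGACTCA or TGAGTCA, the NR4A motif AAAGGTCA, the XBP1 motif TGACGTGG, the E-box CACGTG, or the ERSE and kappaB motifs. Median GC content was 63.7% in the member windows and 64.7% in those of the listed genes, and no motif searched stood in all member windows.

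The libraries held between 20567313 and 28459677 reads, and a member had between 184 and 5711 reads in a library. Of 12 plasma cell marker symbols, 11 were listed, and the other, IGJ, is an older symbol of JCHAIN. The summed CPM of those listed was 23277 to 23285 with DMSO, 16060 to 16136 with CCF642 and 18730 to 18845 with CCF642-34. This sum was carried by IGLL5 (a mean of 13327 CPM with DMSO and 9061 with CCF642) and JCHAIN (4319 and 1833). SDC1 (860.2 and 245.3), TNFRSF17 (165.7 and 71.9), MZB1, POU2AF1 and CD38 were also lower with both compounds. IRF4 went the other way, from 669.5 to 1137 CPM with CCF642 and 1356 with CCF642-34. SLAMF7 did so too, from 674.7 to 793.7 and 784.7 CPM. XBP1 had means of 1363, 1390 and 1313 CPM with DMSO, CCF642 and CCF642-34, and PRDM1 403.1, 458.8 and 398.4 CPM. Both met the sign pattern that chose the members. Of the mature B cell markers, CD79B and CR2 were listed, at a summed 60.3 to 62.3 CPM under DMSO, 46.6 to 49.4 under CCF642 and 54.0 to 55.8 under CCF642-34, and MS4A1 and PAX5 were not. None of 6 monocyte markers was listed. Of 7 T cell markers, CD3E alone was listed at a summed 2.09 to 3.19 CPM, 2 of 6 epithelial markers (EPCAM and KRT8) at 1.46 to 3.00 CPM and 2 of 6 fibroblast markers (COL1A1 and PDGFRB) at 2.74 to 11.7 CPM. COL1A1 had means of 1.29, 9.76 and 3.13 CPM with DMSO, CCF642 and CCF642-34, and PDGFRB 1.504, 1.40 and 1.21 CPM. The part of these marker levels in the members' differences was not tested. In bulk RNA, fewer cells of a type and less RNA per cell cannot be told apart.

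SOX4 was read at 12.2 and 12.6 CPM under DMSO, 18.7 and 18.4 under CCF642 and 7.80 and 6.62 under CCF642-34. Both CCF642 libraries lay above and both CCF642-34 libraries below the DMSO libraries, without overlap. In the same order the means were 12.4 ± 0.244, 18.5 ± 0.214 and 7.21 ± 0.835 CPM (SD, n = 2), so the mean was 49.4% above DMSO with CCF642 and 41.8% below it with CCF642-34, and the mean with CCF642 was 2.57 times that with CCF642-34. SOX4 had the lowest CPM of the members, without regard to length. In its CCF642-34 libraries 222 and 184 reads were counted, with exact Poisson 95% intervals of 6.81 to 8.90 CPM and 5.70 to 7.65 CPM. These intervals, which cover counting error only, overlap each other and end below 10.8 CPM, the lower end of the interval in the lower DMSO library.

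ITGB8 was read at 37.7 and 39.8 CPM under DMSO, 60.8 and 60.6 under CCF642 and 28.5 and 29.3 under CCF642-34. The 3 groups again stood apart, and the spread within each group was small beside the gaps. The mean was 56.9% above DMSO with CCF642, the widest gap of the 9 members on that side, and 25.3% below DMSO with CCF642-34, and the group means were 38.7 ± 1.48, 60.7 ± 0.134 and 28.9 ± 0.531 CPM (SD over 2 libraries).

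MACC1, named for metastasis in colon cancer, was read at 110.7 and 106.4 CPM under DMSO, 141.1 and 138.9 under CCF642 and 77.6 and 82.4 under CCF642-34. Its libraries did not overlap between groups. As deposited, its gaps to DMSO were nearly even in both directions, 28.9% above with CCF642 and 26.3% below with CCF642-34. NABP1, a subunit of the SOSS complex that senses single-stranded DNA, had the highest CPM of the members, at 180.6 and 177.3 CPM under DMSO, 259.6 and 252.8 under CCF642 and 151.1 and 156.6 under CCF642-34. Here the gap with CCF642 was the larger, 43.2% above DMSO, and that with CCF642-34 the smallest of the members, 14.0% below.

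TXK, PDE3B and GOLGA8B also had libraries that did not overlap between groups. TXK, a kinase first known from T cells, was read at 31.0 and 32.4 CPM under DMSO, 34.8 and 37.3 under CCF642 and 20.3 and 20.1 under CCF642-34. PDE3B, a phosphodiesterase that cuts cyclic AMP, was read at 60.0 and 59.1 CPM under DMSO, 71.1 and 67.6 under CCF642 and 41.0 and 44.0 under CCF642-34. In both genes the CCF642-34 side was the wider one as deposited, 36.3% below DMSO against 13.7% above for TXK and 28.6% below against 16.5% above for PDE3B. GOLGA8B was read at 142.8 and 136.0 CPM under DMSO, 178.2 and 159.7 under CCF642 and 94.9 and 94.0 under CCF642-34, which is 21.2% above and 32.2% below DMSO. Its CCF642 libraries were the least alike of any member in that group, with an SD of 7.75% of their mean.

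DSCAM, an adhesion molecule of the immunoglobulin superfamily known from neurons, was read at 37.4 and 39.8 CPM under DMSO, 41.6 and 39.1 under CCF642 and 23.8 and 23.5 under CCF642-34. GJB2, which encodes the gap junction protein connexin 26, was read at 49.3 and 53.0 CPM under DMSO, 51.7 and 53.5 under CCF642 and 31.0 and 32.4 under CCF642-34. For both genes the CCF642 libraries overlapped those of DMSO as deposited, and only the CCF642-34 libraries stood apart, with group means of 23.6 ± 0.21 CPM for DSCAM and 31.7 ± 1.06 CPM for GJB2 beside 38.6 ± 1.73 and 51.2 ± 2.65 CPM for DMSO (SD, n = 2). The means with CCF642 were 4.57% above DMSO for DSCAM and 2.82% above for GJB2, which is less than the DMSO libraries differed from each other.

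**Figure D1:**
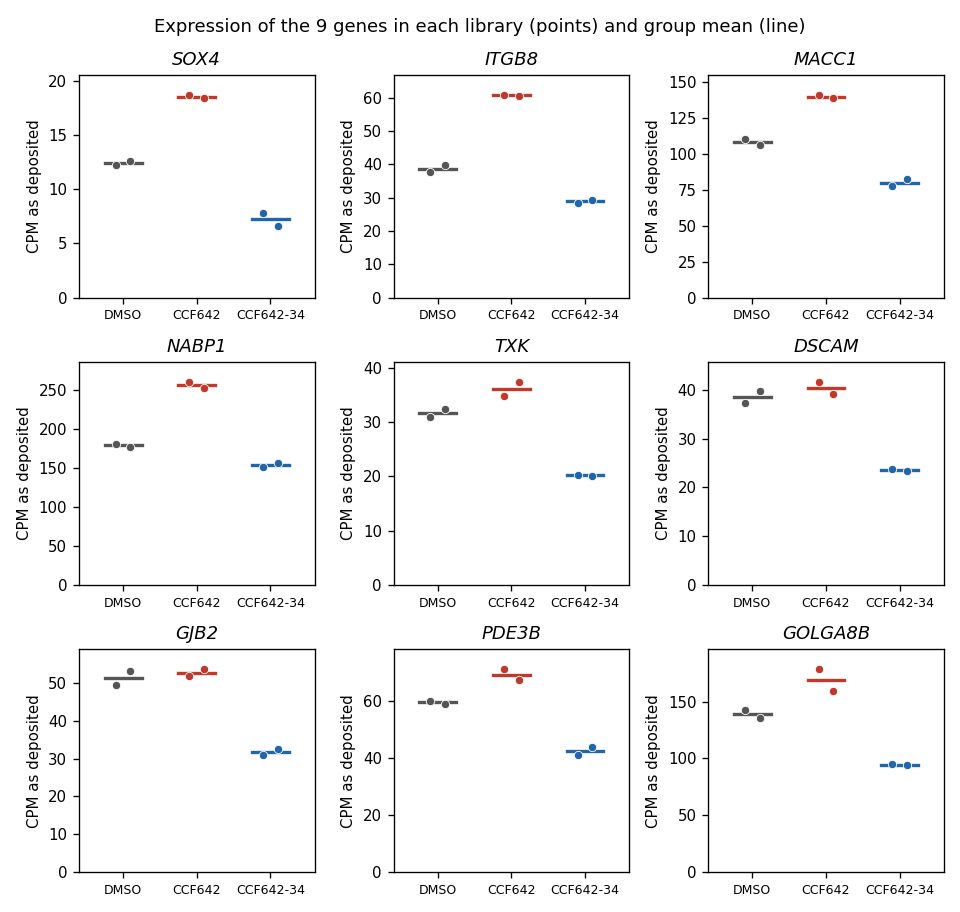
CPM as deposited for each of the 9 genes (vertical axes, each from 0) in the DMSO, CCF642 and CCF642-34 libraries; points are single libraries and lines are means of 2. In 7 panels the CCF642 points lie above and the CCF642-34 points below both DMSO points, and for DSCAM and GJB2 the CCF642 points overlap those of DMSO.

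Levels can be compared between genes only per length. Per kilobase of merged exons, with GENCODE 29 gene models, the DMSO means ran from 2.12 CPM for SOX4 and 2.55 CPM for ITGB8 through 4.50 for DSCAM, 5.09 for PDE3B, 9.13 for TXK, 10.97 for MACC1 and 12.96 for NABP1 to 18.2 for GOLGA8B and 20.1 for GJB2. By this measure GJB2, whose exons span only 2.55 kb, was the highest member. The members' median gene span was 67.9 kb and their median exon length 8.58 kb, beside 34.2 and 5.26 kb over the 11006 listed genes matched to a gene model.

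To set the members against the whole table, CPM values were scaled by the TMM method, raised by 1 and taken to log2, a scale that understates changes of low genes. With CCF642 the fitted log2 differences from DMSO were 0.77 for ITGB8, 0.67 for SOX4, 0.65 for NABP1, 0.50 for MACC1, 0.41 for GOLGA8B, 0.35 for PDE3B, 0.31 for TXK, 0.19 for DSCAM and 0.17 for GJB2. With CCF642-34 they were −0.63 for SOX4, −0.60 for DSCAM, −0.58 for GJB2, −0.54 for TXK, −0.47 for GOLGA8B, −0.39 for PDE3B, −0.35 for MACC1, −0.32 for ITGB8 and −0.13 for NABP1. The standard errors ran from 0.045 for NABP1 to 0.12 for SOX4, and neighbours in these orders lay within the sum of their standard errors except MACC1 below NABP1 with CCF642 and NABP1 below ITGB8 in size with CCF642-34. On this scale the gap of MACC1 was wider with CCF642 and the gaps of PDE3B were nearly even, unlike those as deposited. No member reached a 2-fold difference from DMSO in either direction. Both orders share the DMSO libraries.

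**Figure D2:**
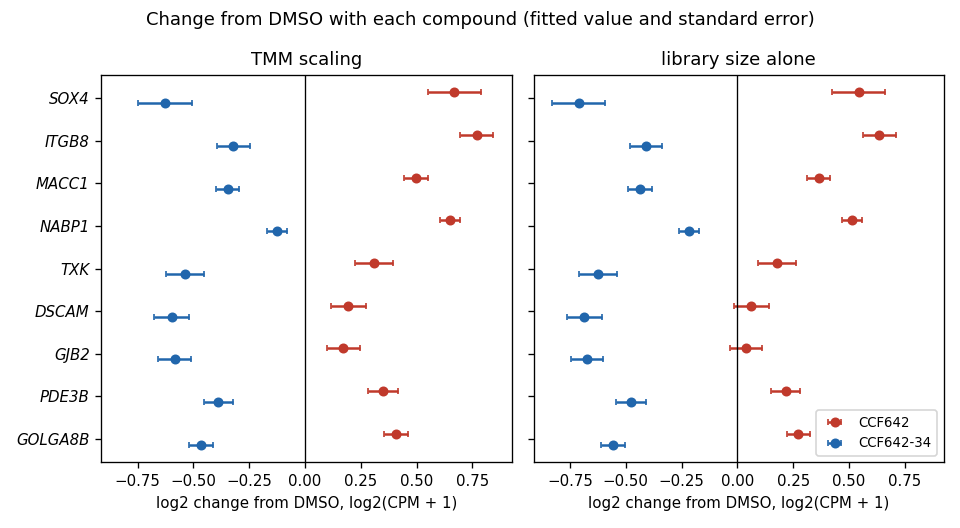
Fitted log2 difference from DMSO (horizontal axes, on log2(CPM + 1)) for the 9 genes with CCF642 (red) and CCF642-34 (blue), with TMM scaling at left and library size alone at right; bars are standard errors. All red points lie above 0 and all blue points below, and with library size alone the red points of DSCAM (0.063) and GJB2 (0.040) come within their error of 0.

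Between the compounds, the log2 level with CCF642-34 minus that with CCF642 was −1.30 for SOX4 and −1.09 for ITGB8, and between −0.87 (GOLGA8B) and −0.74 (PDE3B) for the other 7 members. These differences follow in sign from the choice of the genes. The median over the members was 0.41 with CCF642, −0.47 with CCF642-34 and −0.84 between the compounds, beside −0.0066, 0.0067 and 0.0093 over all 11048 genes. Scaling by library size alone moved the median of all genes to −0.13 with CCF642, −0.078 with CCF642-34 and 0.051 between the compounds, and the member medians to 0.27, −0.56 and −0.80. All 9 members kept their signs under that scaling, as their choice on CPM as deposited implies.

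The sign pattern itself was met by 738 of 11048 genes (6.68%) as deposited, and libraries without overlap between the groups by 213 (1.93%), of which 7 were members. After TMM scaling 880 genes met the pattern and 305 had libraries without overlap, all 9 members among them. As the members were chosen by this pattern, nothing is read from their counts. Ordered by the smaller of the 2 changes from DMSO, SOX4 ranked 3, ITGB8 7 and MACC1 8 among the 738 genes, followed by GOLGA8B at 17, NABP1 at 31, PDE3B at 32 and TXK at 50. DSCAM ranked 302 and GJB2 435, so these members sit in the middle of the pattern genes. Just outside the rule lay DGKE, at mean levels of 110.8, 161.7 and 111.3 CPM with DMSO, CCF642 and CCF642-34, and MLKL, at 10.30, 10.30 and 6.83 CPM. Of the members, GJB2 lay nearest to DMSO on the CCF642 side and NABP1 on the CCF642-34 side.

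The profiles of the members over the 6 libraries were much alike, as their choice implies. Pearson's r over 6 libraries, given as a description since all genes share the libraries and their treatments, ran from 0.773 for NABP1 with GJB2 to 0.992 for PDE3B with GOLGA8B over 36 pairs, with a median of 0.958. Of 8915 genes compared, those most like the mean member profile were ITGAV, which encodes the integrin αV chain, FAM171B, NKTR, LAMA5 and MZF1 (r from 0.996 to 0.994). These values are too close to order, and the profile was made from the values that chose the members. The genes most like SOX4 were LAMA5 (0.997), LENG8 (0.997) and CITED2 (0.996), and those most like ITGB8 were BDP1 (0.998), DYNC1LI2 (0.997) and KMT2B (0.994). LAMA5, a laminin chain of the basement membrane, was read at 199.8 and 207.9 CPM under DMSO, 239.5 and 237.6 under CCF642 and 157.9 and 152.2 under CCF642-34.

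Relatives and partners of the members, in 10 lists that did not use the sign pattern, could be tested. The lists were, however, chosen with earlier results of these data known. Of 204 such genes, 105 were listed. With limma, at a Benjamini-Hochberg adjusted p under 0.05 over all 11048 genes, CCF642 raised 35 and lowered 37 of them relative to DMSO, beside 31.8% and 31.3% of all genes. CCF642-34 raised 32 and lowered 38, beside 29.7% and 27.9% of all genes. Between the compounds, 16 (15.2%) were higher and 29 (27.6%) lower with CCF642-34, beside 15.9% and 17.4% of all genes. Without CCF642-34 replicate 1 or 2 the related genes higher fell to 10 in either case, with 24 and 26 lower, and all genes higher fell from 1760 to 1044 and 1168. With library size alone the counts were 26 and 43 for CCF642, 22 and 44 for CCF642-34, and 23 and 27 between the compounds. With TMM scaling their median direct difference was −0.040, beside 0.0093 over all genes. As deposited, 12 of the 105 (11.4%) met the sign pattern, beside 6.68% of all genes. GOLGA8A, whose transcripts share much sequence with the member GOLGA8B, is among them. The counts of single lists below are to be read beside the shares of all genes given here.

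**Figure D3:**
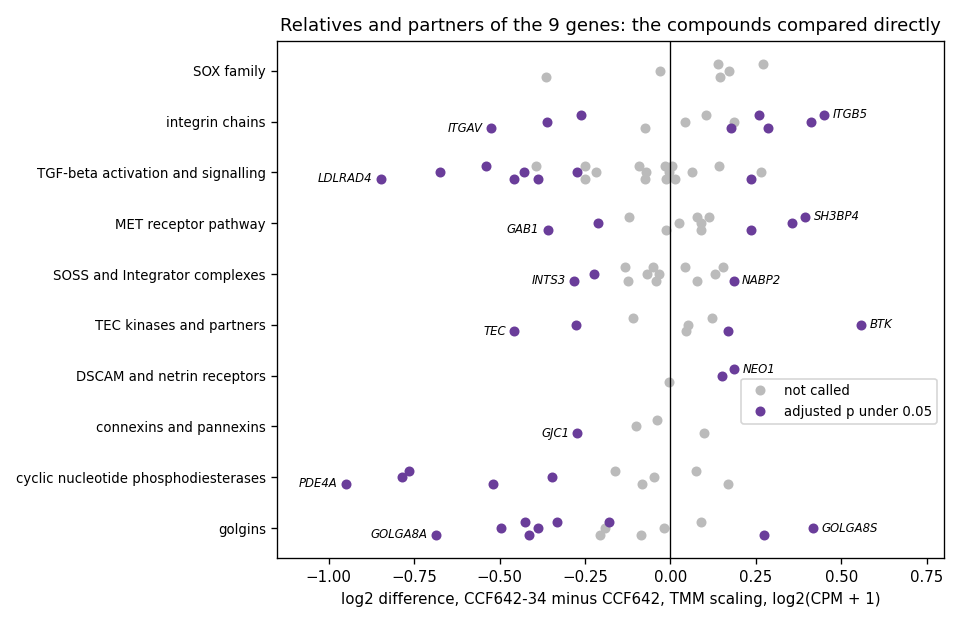
Log2 difference of CCF642-34 minus CCF642 (horizontal axis, TMM scaling) for the 105 listed relatives and partners of the 9 genes, 1 row per list; purple points have an adjusted p under 0.05 in limma and the called extremes are named. Called genes lie mostly to the left among the TGF-β, phosphodiesterase and golgin lists, whereas no SOX family gene was called.

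Of 19 other SOX genes, 6 were listed, and 0 of these met the sign pattern. In limma 3 fell with CCF642 and 4 with CCF642-34, and 0 were called between the compounds, with 0 also at an unadjusted p under 0.05 and 0 in the tests of edgeR and DESeq2. Apart from SOX2 these genes were low, with means of at most 8.37 CPM with DMSO. Their 95% intervals between the compounds were wide, such as −0.76 to 0.033 for SOX13 and −0.18 to 0.72 for SOX7, so differences of that size could go uncalled. SOX2, a pluripotency factor, was read at 23.8 and 24.2 CPM under DMSO, 6.52 and 7.35 under CCF642 and 8.64 and 7.34 under CCF642-34. It fell by 1.53 with CCF642 (SE 0.12, adjusted p = 3.59e-15, limma) and by 1.39 with CCF642-34 (adjusted p = 1.2e-13), and the difference between the compounds was 0.14 (95% interval −0.11 to 0.39). SOX11 and SOX12, which with SOX4 form the SOXC group, fell by 1.26 and 1.14 with CCF642 and by 1.12 and 1.17 with CCF642-34 (the highest adjusted p was 1.66e-05). SOX7, at a mean of 0.955 CPM with DMSO and 1.99 CPM with CCF642-34, rose by 0.67 with CCF642-34 (adjusted p = 0.00967), a call lost without DMSO replicate 1 (0.48) or CCF642-34 replicate 1 (0.59), and SOX13 fell by 0.68 with CCF642-34 (adjusted p = 0.00272). Whether SOX4 differs from its relatives was not tested, because its values chose it.

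Among integrin chains, 12 of 25 were listed besides ITGB8, and 9 fell with each compound, beside 31.3% of all genes with CCF642 and 27.9% with CCF642-34. ITGAV was the chain that rose with CCF642, and its values were 58.7 and 59.5 CPM under DMSO, 65.6 and 62.1 under CCF642 and 45.6 and 45.2 under CCF642-34. The groups did not overlap. ITGAV rose by 0.24 with CCF642 (SE 0.065, adjusted p = 0.00125, limma) and fell by 0.28 with CCF642-34 (adjusted p = 2.29e-04), with a difference of −0.53 between the compounds (adjusted p = 9.9e-09). With library size alone the rise was 0.11 and was not called (adjusted p = 0.136), whereas the difference between the compounds was −0.48 (adjusted p = 1.45e-07). ITGB5, another β chain that pairs with αV, went the other way between the compounds. It fell by 0.72 with CCF642 and by 0.27 with CCF642-34, and was higher with CCF642-34 than with CCF642 by 0.45 (adjusted p = 1.12e-08). ITGA3 was likewise higher with CCF642-34 than with CCF642, by 0.41 (adjusted p = 1.29e-05), and ITGB4 lower by 0.36 (adjusted p = 0.0417). The ITGB4 call was lost in 6 of 15 alternatives, among them library size alone (−0.32) and the fits without DMSO replicate 2 (−0.36), CCF642 replicate 2 (−0.26) and CCF642-34 replicate 1 (−0.29) or 2 (−0.43).

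In the pathway of TGF-β activation and signalling, 23 of 28 genes were listed, 9 rising and 4 falling with CCF642, 8 rising and 5 falling with CCF642-34, and 7 lower but 1 higher in CCF642-34 when the compounds were compared. With library size alone the counts with CCF642-34 were 4 rising and 7 falling, so the direction of that list turned with the scaling. LDLRAD4, which holds back SMAD signalling, was read at 8.09 and 8.97 CPM under DMSO, 45.0 and 38.6 under CCF642 and 23.8 and 23.1 under CCF642-34. It rose by 2.29 with CCF642 (SE 0.099, adjusted p = 3.02e-25, limma) and by 1.44 with CCF642-34 (adjusted p = 2.35e-17), and was lower with CCF642-34 than with CCF642 (difference −0.85, adjusted p = 2.15e-09). SKI, a corepressor of SMADs, differed in the same sense between the compounds, by −0.67 (adjusted p = 9.06e-10), and SMURF2, a ubiquitin ligase that acts on TGF-β receptors, in the other, by 0.24 (adjusted p = 0.0416). The SMURF2 call was lost without DMSO replicate 1 (0.24), CCF642 replicate 2 (0.21) and CCF642-34 replicate 1 (0.25) or 2 (0.22). NRROS, which tethers latent TGF-β to cells, fell by 0.92 and 0.78, with no call between the compounds (0.14, 95% interval 0.025 to 0.26, adjusted p = 0.0542), and TGFBR3, a coreceptor, fell by 1.01 with CCF642.

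MET, the receptor gene that MACC1 is known to raise, was not called in any comparison. Its values were 5.48 and 4.58 CPM under DMSO, 3.99 and 4.82 under CCF642 and 4.71 and 4.96 under CCF642-34, and the difference between the compounds was 0.079 (95% interval −0.25 to 0.41). At this level a difference of that size was not detectable. Of the 12 listed genes of the MET pathway, the comparison of the compounds called 3 higher and 2 lower in CCF642-34, and 6 and 2 with library size alone. GAB1, the adaptor that docks to MET, was lower by a log2 difference of −0.36 (adjusted p = 1.23e-08, limma), SPINT2, an inhibitor of the protease that activates the ligand, was higher by 0.36 (adjusted p = 1.01e-04), and SH3BP4 was higher by 0.39 (adjusted p = 0.0116), a call lost without CCF642-34 replicate 2 (0.30). STAT3 rose by 0.67 and 0.55 and CBL fell by 0.68 and 0.59 with CCF642 and CCF642-34.

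NABP1 works with NABP2, INIP and INTS3 in SOSS complexes, and 13 of 17 genes of those complexes and of Integrator were listed. Between the compounds 1 was higher and 2 were lower with CCF642-34. NABP2, the paralogue of NABP1, was the higher one, by 0.18 (adjusted p = 0.0394, limma). That call was lost in 6 of 15 alternatives, among them fits without DMSO replicate 2 (0.18), CCF642 replicate 2 (0.13) and CCF642-34 replicate 1 (0.17) or 2 (0.20). INTS3, the scaffold, was lower (−0.28, adjusted p = 6.1e-05), as was INTS1 (−0.22, adjusted p = 2.4e-04). INTS3 was read at 96.1 and 99.1 CPM under DMSO, 100.4 and 99.0 under CCF642 and 83.1 and 85.7 under CCF642-34, so its CCF642 and DMSO libraries overlapped.

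TEC, the kinase most like TXK by family and its neighbour on chromosome 4, rose by 0.59 with CCF642 (SE 0.049, adjusted p = 1.15e-14, limma) and by 0.14 with CCF642-34 (adjusted p = 0.0171), and the difference between the compounds was −0.46 (adjusted p = 2.77e-10). Its values were 136.2 and 130.0 CPM under DMSO, 178.6 and 188.1 under CCF642 and 133.7 and 141.3 under CCF642-34. With CCF642-34 the TEC mean as deposited, 137.5 CPM, lay little above its DMSO mean, 133.1 CPM, and these libraries overlapped. The TXK mean lay below its own DMSO mean. PLCG1, a phospholipase downstream of these kinases, was lower with CCF642-34 than with CCF642 (−0.27, adjusted p = 1.93e-04), and LCP2 and BTK were higher, by 0.17 and 0.56 (adjusted p = 0.0268 and 0.0292). Both of the latter calls were lost without CCF642 replicate 1 (0.16 and 0.41) and without CCF642-34 replicate 1 (0.18 and 0.56) or 2 (0.16 and 0.56). FYN, a kinase of the SRC family, rose by 0.98 with CCF642 and 1.03 with CCF642-34.

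Of 14 relatives of DSCAM and netrin receptors, 3 were listed. NEO1, a netrin receptor, fell by 0.76 with CCF642 and 0.58 with CCF642-34 (the higher adjusted p was 1.42e-09, limma), and was higher with CCF642-34 than with CCF642 by 0.19 (adjusted p = 0.0371), as was PAK1 by 0.15 (adjusted p = 0.0437). Each of these calls was lost in 7 of 15 alternatives, among them fits without either DMSO library (0.19 for NEO1 and 0.15 for PAK1), without CCF642 replicate 1 (0.11 and 0.13) and without CCF642-34 replicate 1 (0.21 and 0.095). Of 23 connexins and pannexins besides GJB2, 4 were listed, and GJA1, which encodes connexin 43, fell by 1.09 with CCF642 and by 0.99 with CCF642-34 (the higher adjusted p was 6.51e-11). GJC1 was lower with CCF642-34 than with CCF642 (−0.27, adjusted p = 0.0109), a call lost without either CCF642-34 library (−0.27 in both fits), and PANX2 rose by 0.76 and 0.66.

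Among cyclic nucleotide phosphodiesterases, 10 of 24 were listed besides PDE3B. With TMM scaling, 5 were lower and 0 higher with CCF642-34 than with CCF642, beside 17.4% and 15.9% of all genes. The counts were likewise 5 and 0 under DESeq2's size factors and library size alone. They were also 5 and 0 at an unadjusted p under 0.05 and in the tests of edgeR and DESeq2. PDE4A was read at 18.3 and 19.7 CPM under DMSO, 19.0 and 19.7 under CCF642 and 9.45 and 10.2 under CCF642-34. It fell by 0.80 with CCF642-34 (adjusted p = 1.52e-08, limma), with a difference of 0.15 from DMSO with CCF642 (adjusted p = 0.226) and of −0.95 between the compounds (adjusted p = 1.02e-09), close in course to DSCAM and GJB2. PDE4B rose with both compounds, by 1.51 and 0.72, and PDE4D by 1.73 and 0.97, both less with CCF642-34 (differences −0.79 and −0.77, the higher adjusted p 2.3e-08). PDE8A, named after its values were seen, rose by 0.28 with CCF642 (adjusted p = 0.00548) and fell by 0.24 with CCF642-34 (adjusted p = 0.0182). PDE7A fell by 0.89 and 0.98. The PDE4, PDE7 and PDE8 enzymes are specific for cyclic AMP, whereas PDE3B also takes cyclic GMP.

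Of 29 golgins and Golgi stacking genes, 14 were listed besides GOLGA8B. With CCF642, 10 were higher and 1 lower, beside 31.8% and 31.3% of all genes. With CCF642-34, 10 were higher and 2 lower, beside 29.7% and 27.9% of all genes. The medians were 0.63 and 0.33. Between the compounds 7 were lower and 2 higher with CCF642-34, beside 17.4% and 15.9% of all genes. With library size alone the counts were 10 and 2, 8 and 2, and 7 and 3. GOLGA2, a tether of the cis-Golgi, rose by 1.58 with CCF642 and 1.08 with CCF642-34 and differed by −0.49 between them (adjusted p = 1.52e-10, limma). GORASP1 fell by 0.42 and 0.51. GOLGA7 was higher with CCF642-34 than with CCF642 by 0.27 (adjusted p = 7.32e-04), as was GOLGA8S by 0.42 (adjusted p = 0.0450). GOLGA8S was low, with means of 5.13, 3.94 and 5.77 CPM with DMSO, CCF642 and CCF642-34. Its call was lost in 5 of 14 alternatives, among them fits without CCF642 replicate 2 (0.29) and CCF642-34 replicate 2 (0.25). GOLGA8A stood apart from these with the course of GOLGA8B. It was read at 249.1 and 255.5 CPM under DMSO, 301.5 and 264.1 under CCF642 and 178.3 and 182.3 under CCF642-34, rising by 0.29 (adjusted p = 4.79e-07) and falling by 0.39 (adjusted p = 8.25e-10), with a difference of −0.69 between the compounds (adjusted p = 1.43e-16). GOLGA8A and GOLGA8B are near-identical copies, and 60.0% of the 50-base stretches of GOLGA8B transcripts also stood in GOLGA8A, so their reads may have been split between them and they are not independent. Their summed level was 391.7 ± 0.364 CPM under DMSO, 451.7 ± 39.6 under CCF642 and 274.8 ± 2.19 under CCF642-34 (SD, n = 2). Of the other members, at most 3.03% of such stretches stood in another gene.

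MACC1 and ITGB8 lie on chromosome 7 with starts 113 kb apart on opposite strands in GRCh38, and each is the other's nearest listed gene on that side. Beyond them, TWISTNB differed by 0.049 with CCF642 (adjusted p = 0.501, limma) and fell by 0.19 with CCF642-34 (adjusted p = 0.00786), and SP4 fell with both, by 0.86 and 1.13. The sign pattern was met by 6.68% of all genes and, within 3 Mb of the ITGB8 start, by 1 of 15 other listed genes. This was RAPGEF5, named after its values were seen, which rose by 0.52 with CCF642 (adjusted p = 7.33e-07), with −0.050 from DMSO with CCF642-34 (adjusted p = 0.638) and −0.57 between the compounds (adjusted p = 6.09e-07).

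**Figure D4:**
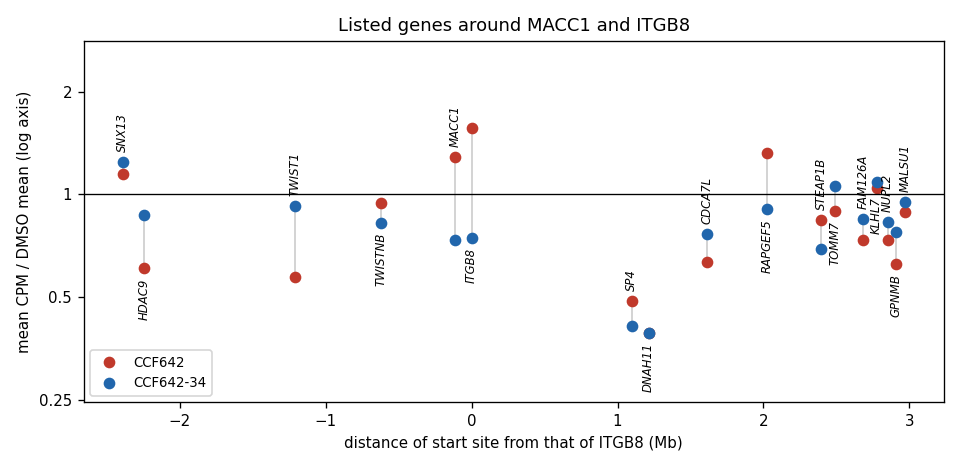
Mean CPM relative to the DMSO mean (vertical axis, log scale) with CCF642 (red) and CCF642-34 (blue) for the 17 listed genes with a start site within 3 Mb of that of ITGB8 (horizontal axis, distance in Mb). MACC1 and ITGB8 have red points above 1 and blue points below it, and RAPGEF5 is the other gene of the window with this pattern.

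The nearest listed gene on each side of the 9 members, TWISTNB and SP4 included, gave 16 neighbours that are no members. Of these, 2 met the sign pattern, beside 6.68% of all genes. They were ZMYM2 next to GJB2 and GOLGA8A next to GOLGA8B among listed genes. Between the compounds 2 of the 16 were higher and 4 lower with CCF642-34 in limma, beside 15.9% and 17.4% of all genes. ZMYM2 rose by 0.37 with CCF642 (adjusted p = 1.05e-06), with 0.023 from DMSO with CCF642-34 (adjusted p = 0.768). PSMA1, a proteasome subunit whose start is 0.088 kb from that of PDE3B on the other strand, rose with both compounds, by 0.32 and 0.44 (the higher adjusted p was 7.82e-09). NFXL1, on the other side of TXK from TEC, rose by 1.18 and 1.12. SLC39A10, a zinc importer and the nearest listed gene on one side of NABP1 at 3898 kb, fell by 0.94 and 1.11.

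Antisense or overlapping genes shared 0.647% to 2.87% of the exon bases of SOX4, ITGB8, MACC1 and NABP1, and none of them was listed. Strand use in the counting is not given in the sources used here, so reads within the 2.87% of SOX4 exon bases shared with its antisense gene cannot be told apart.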

How the data were processed

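The authors deposited CPM values for 11048 gene symbols in 6 libraries of MM1.S RNA. The unit was read from the values, and all (100%, tolerance 0.1 read) were whole multiples of 1 read. The submitters' processing notes name STAR, edgeR 3.24.3, limma 3.38.3 and hg19. Here limma 3.58.1 in R 4.3.3 was run on log2 of TMM-scaled CPM plus 1 (TMM from edgeR 4.0.16), the 3 groups together, without a replicate block and with 3 residual and 42.9 prior degrees of freedom. Tests were two-sided and adjusted by Benjamini-Hochberg over all genes. The fit was also run on simulated data with a small set of genes raised in CCF642 only. As the deposited data hold many calls in both directions, that run does not measure the rate of false calls here. Count tests on the recovered reads were alternatives. Genes were placed with GENCODE 29 on GRCh38, not on the build of the files.

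The members and lists were chosen with earlier results of these data known. The rule for naming took all members, the called extremes of each list and the genes most alike in profile (mean log2 CPM of at least 3). It also took the nearest listed genes on each side and the 3 strongest other pattern genes. The called extremes ITGA8, SOS1, INTS2 and INTS12 and some of the nearest listed genes are not printed above. Related genes were described by counts and medians without a set test. A series-wide table with the same values was not used. Replicate numbers were not treated as pairs, and the sources used here do not say whether they pair the libraries.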

Additional observations from a re-analysis of the deposited data

How the results depend on the processing

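With 15 alternatives (scaling, a pseudocount of 0.1 or 4, genes with a mean CPM of at least 5, other tests, a replicate block, fits of 2 groups and fits without each library), counts of called genes in both directions together stayed within 1.5 times the reported ones. They ran from 6005 to 7266 with CCF642, 5245 to 6764 with CCF642-34 and 2470 to 3894 between the compounds, and for the related genes from 62 to 72, 60 to 74 and 34 to 50. Library size alone moved the split: all genes to 2528 higher and 4738 lower with CCF642 (34.8% higher, from 50.4%), 2497 and 3972 with CCF642-34 (38.6%, from 51.6%) and 2406 and 1488 between the compounds (61.8%, from 47.8%), with the split of the related genes given above. DESeq2's Wald test gave 9 related genes higher and 27 lower between the compounds (25.0% higher, from 35.6%). On the recovered reads edgeR's quasi-likelihood test called 6932, 6440 and 3724 of all genes. With the replicate block the counts were 7014, 6422 and 3802 of all genes and 72, 72 and 46 of the related genes. The correlations of replicate differences between groups were −0.0089, −0.056 and 0.047, so no effect shared by replicates of the same number was seen. These values cannot tell whether the libraries were prepared in pairs. The 9 members kept their sign in all 108 alternative values of each comparison, with ranges of 0.040 to 0.81, −0.73 to −0.10 and −1.41 to −0.69, as far as genes chosen by sign can show. Of 984 alternative values for 66 results on related genes that the naming rule took, 919 kept their call and 64 lost it. The other 1 changed sign, DOCK2 with CCF642 under library size alone (−0.017, from 0.12). Without 1 library, the lone library of a group was assumed to vary like the other groups. Depth limits low genes most, such as SOX7, MET, BTK (a mean of 2.35 CPM with DMSO) and PANX2 (1.51 CPM with DMSO).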

Other observations

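Outside the 9 genes, the 3 with the strongest form of the same sign pattern were all lowly expressed. CCL3L1, a chemokine gene, was read at 1.61 and 0.981 CPM under DMSO, 2.53 and 2.52 under CCF642 and 0.316 and 0.324 under CCF642-34. MRGPRX2, a receptor known from mast cells, was read at 0.826 and 1.07 CPM under DMSO, 2.24 and 1.505 under CCF642 and 0.176 and 0.144 under CCF642-34. CACNB2, a calcium channel subunit, was read at 2.65 and 2.06 CPM under DMSO, 4.28 and 3.94 under CCF642 and 1.19 and 1.62 under CCF642-34. In all 3 genes the groups did not overlap, and as they were ranked by this pattern, no test was made. The reverse pattern, a mean below DMSO with CCF642 and above it with CCF642-34, was met by 1152 genes as deposited and by 1035 after TMM scaling, more than the 738 and 880 with the pattern of SOX4 and ITGB8.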
